A study of Mus musculus with 19 samples.

Results

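The heat shock response genes described here were 10 named rows of a table of 20938 genes: Hspa1a, Hspa1b, Dnajb1, Hsph1, Hspb1, Hsp90aa1, Hsp90ab1, Hspa8, Hspa5 and Hsf1. They were chosen by name, and all 10 were in the count table and passed the filter on low counts. Total RNA of the left prelimbic cortex of mice, a medial prefrontal area, was sequenced in 19 libraries of 4 groups. Control mice had daily intraperitoneal saline for 2 weeks (n = 6 libraries), and SCZ mice had daily intraperitoneal MK-801, an NMDA receptor blocker, at 0.2 mg/kg for 2 weeks (n = 4). Control+c-MSST (n = 5) and SCZ+c-MSST mice (n = 4) had the same injections and c-MSST, in which ferumoxytol, a coated iron oxide nanoparticle, was placed once in that area by stereotactic injection and a pulsed magnetic field was applied. Tissue was taken on day 3 after surgery. Whether mice without c-MSST were operated on is not in the labels, so field, particle, injection and surgery cannot be told apart in the comparisons below. No label gives strain, sex, age or batch, or ties a library to 1 mouse, so p-values measure the spread between libraries.

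Cells meet heat, oxidants and misfolded protein with the heat shock response. In unstressed cells the transcription factor Hsf1 is held back by chaperones, and when these are taken up by damaged protein it forms trimers that bind heat shock elements, repeats of the letters GAA and TTC, in front of chaperone genes. Hspa1a, Hspa1b, Dnajb1, Hsph1 and Hspb1 are well-known targets that rise in stressed cells, whereas Hspa8, Hsp90ab1 and Hspa5 serve protein folding in every cell, and neurons express Hspa8 and the Hsp90 genes at high levels. Hspa5 stands apart in that it works in the endoplasmic reticulum and answers to the unfolded protein response.

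The 250 bases before the start of 6 members are shown because these are the stretches where heat shock elements were looked for; they come from RefSeq on GRCm38.p6, the assembly of mm10. Each runs 5′ to 3′ on the gene's own strand, and capitals mark a match to GAANNTTC or TTCNNGAA, a pair of facing heat shock repeats, or, in Hspa5, to the endoplasmic reticulum stress element.
Hspa1a, chr17:34972157-34972406, minus strand: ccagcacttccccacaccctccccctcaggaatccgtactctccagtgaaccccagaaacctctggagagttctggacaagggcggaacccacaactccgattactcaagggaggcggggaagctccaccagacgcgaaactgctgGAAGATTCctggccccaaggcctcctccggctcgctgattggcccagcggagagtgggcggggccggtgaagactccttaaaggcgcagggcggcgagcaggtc
Hspa1b, chr17:34959239-34959488, minus strand: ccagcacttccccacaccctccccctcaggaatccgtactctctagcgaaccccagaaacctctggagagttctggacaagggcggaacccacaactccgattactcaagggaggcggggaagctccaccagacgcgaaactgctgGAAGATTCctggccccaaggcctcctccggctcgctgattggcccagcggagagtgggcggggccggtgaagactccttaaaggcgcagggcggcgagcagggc
Hsph1, chr5:149636337-149636586, minus strand: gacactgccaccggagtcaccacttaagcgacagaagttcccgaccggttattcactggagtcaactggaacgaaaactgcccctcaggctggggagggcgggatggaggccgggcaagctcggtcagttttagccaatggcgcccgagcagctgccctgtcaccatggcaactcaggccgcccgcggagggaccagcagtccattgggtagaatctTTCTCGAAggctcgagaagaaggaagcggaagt
Hspb1, chr5:135887669-135887918, plus strand: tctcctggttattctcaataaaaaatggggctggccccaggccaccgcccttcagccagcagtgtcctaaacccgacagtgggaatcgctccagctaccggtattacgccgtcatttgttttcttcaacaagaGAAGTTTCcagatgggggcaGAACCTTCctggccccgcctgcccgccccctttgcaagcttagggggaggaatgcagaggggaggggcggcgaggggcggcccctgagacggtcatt
Dnajb1, chr8:83607925-83608174, plus strand: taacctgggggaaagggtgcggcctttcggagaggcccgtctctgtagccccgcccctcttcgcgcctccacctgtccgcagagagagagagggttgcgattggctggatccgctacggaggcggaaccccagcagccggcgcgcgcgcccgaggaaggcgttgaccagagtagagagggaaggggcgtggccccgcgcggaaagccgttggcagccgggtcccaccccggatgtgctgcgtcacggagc
Hspa5, chr2:34771840-34772089, plus strand: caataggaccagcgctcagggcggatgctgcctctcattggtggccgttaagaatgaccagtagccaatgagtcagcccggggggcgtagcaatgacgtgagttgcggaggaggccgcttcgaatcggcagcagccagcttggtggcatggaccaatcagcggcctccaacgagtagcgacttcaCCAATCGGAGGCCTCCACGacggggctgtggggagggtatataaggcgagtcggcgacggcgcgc

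Hspa1a and Hspa1b both held GAAGATTC, starting 104 bases before the start. Hspb1 held GAAGTTTC and GAACCTTC, starting 117 and 97 bases before its start, and Hsph1 held TTCTCGAA, 33 bases before the first of its 2 listed starts and 54 before the other. Hsph1 also had a 3-repeat form, TTCTGGAAAGTTC, from base 37 of the transcript, which lies outside the stretch shown and contains a match to each pair. Among 32851 RefSeq promoter windows searched on both strands, 12.8% held a pair in the 250 bases before the start. Over the whole window, which adds 50 bases after the start, 15.1% held a pair and 0.603% the 3-repeat form. Hspa5 held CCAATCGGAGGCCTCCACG, 65 bases before its start, a motif found before the start in 0.113% of windows. Dnajb1 has 2 windows in the RefSeq table, and neither held any of these letters. A match is a description of the sequence, not evidence of binding. Windows for Hsp90aa1, Hsp90ab1, Hspa8 and Hsf1 were not used here.

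Hspa1a and Hspa1b encode nearly the same inducible Hsp70. Both have a single exon on the minus strand of chromosome 17 in mm10, at chr17:34969190-34972156 for Hspa1a and chr17:34956436-34959238 for Hspa1b, with 9951 bases between them. Their coding sequences matched at 1919 of 1926 aligned bases (99.6%), and their whole transcripts at 93.3% of aligned bases. Their 300-base promoter windows differed at 4 bases, which are C44T, T47C, T249G and C276T, with the Hspa1a base first and positions counted from the 5′ end of the window. The counting step could therefore split reads between the 2 genes, and their sum is given beside the single values. Hspa1a also overlaps Gm20481 on the opposite strand, and Hspa8 holds the small nucleolar RNA genes Snord14c, Snord14d and Snord14e; none of these 4 was in the count table.

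Library totals ran from 50140626 to 82416746 counts. Markers of excitatory cortical neurons were present in every library (summed level of 5 markers, 4434 to 6840 CPM, counts scaled to the library total). None of them was at 0 throughout a group. Striatal markers varied widely (237 to 2957 CPM over 10 markers). Their sum was 237 to 2264 CPM in Control and 328 to 1888 CPM in Control+c-MSST. It was 1843 to 2520 CPM in SCZ and 1207 to 2957 CPM in SCZ+c-MSST. All 10 were positive in SCZ against Control (median log2 fold change 1.18). Septal markers summed to 67.2 to 157 CPM in SCZ and 60.8 to 84.7 CPM in SCZ+c-MSST, with all 7 negative in that comparison (median −1.04). Control replicates 2 and 3 stood apart in choroid plexus markers, at 1775 and 171 CPM against 4.30 to 21.8 CPM in the other 17 libraries, and results that change without them are given both ways. In bulk tissue, fewer cells of a type and less RNA per cell cannot be told apart. Levels below are in CPM, scaled by the TMM method of edgeR. The threshold for a call was an adjusted p of 0.05 in edgeR's quasi-likelihood test, with Benjamini-Hochberg adjustment over 16417 genes.

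Hspa8 and the 2 cytosolic Hsp90 genes were the most abundant members per unit of gene length. On the FPKM scale deposited by the authors, which divides by gene length and library depth, the mean over 19 libraries was 965 for Hspa8, the everyday cytosolic Hsp70, 193 for Hsp90aa1, 126 for Hsp90ab1, 52.7 for Hsph1 and 35.9 for Hspa5. Dnajb1 followed at 9.66 FPKM and Hsf1 at 6.72 FPKM. The least abundant were Hspa1a at 2.54 FPKM, Hspa1b at 2.14 FPKM and Hspb1 at 1.59 FPKM. Over the libraries Hspa8 (872 to 1120 FPKM), Hsp90aa1 (170 to 212 FPKM) and Hsp90ab1 (107 to 141 FPKM) did not overlap. Neighbours did overlap for Hsph1 and Hspa5, Dnajb1 and Hsf1, Hspa1a and Hspa1b, and Hspa1b and Hspb1. The sources used here do not give the length behind the FPKM values, and the order at the top depends on it: per kilobase of GENCODE M21 exon, Hsp90ab1 came first at 447 CPM, then Hspa8 at 357 CPM, Hsp90aa1 at 239 CPM, Hspa5 at 45.5 CPM and Hsph1 at 38.1 CPM. The 5 lower members kept their order.

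Members also differed in how steady they were. Across all 19 libraries the coefficient of variation of CPM was 3.27% for Hsp90ab1, 4.17% for Hsp90aa1 and 5.52% for Hspa8. It was 7.29% for Hsph1, 8.04% for Hspa5 and 10.6% for Dnajb1. The transcription factor Hsf1 varied by 15.3%, Hspa1b by 17.0%, Hspa1a by 17.3% and Hspb1 by 25.8%. These values include differences between groups. Within single groups Dnajb1 varied by 4.36% to 7.15%, Hsph1 by 5.74% to 9.87%, Hspa5 by 6.84% to 9.38% and Hspb1 by 8.35% to 20.8%. Hspb1 had 80 to 265 counts per library, so counting error was largest there. In the library with 80 counts the exact binomial 95% interval ran from 1.27 to 1.99 CPM before TMM scaling, for counting error only.

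With c-MSST in saline mice, 1 of the 10 members was called: Dnajb1 was 1.20-fold higher. Over all genes 54 were called, 0.329% of those tested, of which 38 were higher (0.231%); leaving out 1 library moved the 54 to between 0 (without Control+c-MSST replicate 6) and 314 (without Control replicate 7). The inducible Hsp70 genes Hspa1a and Hspa1b did not pass the test, and neither did the other 7 members. The members' median log2 fold change was 0.012, with 6 positive and 4 negative, against a median of −0.011 over all genes tested.

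Dnajb1 encodes the Hsp40 that hands clients to Hsp70 and stimulates its ATPase. Its levels in the 6 Control libraries ran from 50.1 to 56.7 CPM with a median of 51.5 CPM. The 5 Control+c-MSST libraries had 57.1, 60.9, 64.6, 65.3 and 67.9 CPM. The SCZ libraries had 45.2, 51.8, 52.1 and 53.2 CPM, and the SCZ+c-MSST libraries 51.0, 52.2, 53.2 and 56.4 CPM. Every Control+c-MSST library was thus above every Control library, by a narrow margin over the highest, while SCZ and SCZ+c-MSST overlapped.

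Group means of Dnajb1 were 52.6 ± 2.62 CPM (SD, n = 6) in Control and 63.1 ± 4.21 CPM (n = 5) in Control+c-MSST. The log2 fold change was 0.26 (SE 0.053, edgeR adjusted p = 0.0439), and groups did not overlap in this direction for 0.847% of genes. In MK-801 mice the means were 50.6 ± 3.62 CPM (n = 4) without and 53.2 ± 2.32 CPM (n = 4) with c-MSST, a log2 fold change of 0.073 (95% interval −0.058 to 0.20, edgeR adjusted p = 0.824). The difference between the 2 effects did not pass the test either (log2 −0.19, SE 0.082, edgeR adjusted p = 0.643). Averaged over saline and MK-801 mice, the effect of c-MSST on Dnajb1 was 0.17 (SE 0.041, edgeR adjusted p = 0.0856).

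The call of Dnajb1 was close to the threshold. In edgeR it was kept without Control replicate 7, Control+c-MSST replicate 1 or 2, or SCZ replicate 5 (adjusted p 0.0187 to 0.0413), and lost without any 1 of the other 15 libraries (adjusted p 0.0522 to 0.139), with log2 fold changes of 0.24 to 0.30. Without Control replicates 2 and 3 together it was 0.24 (edgeR adjusted p = 0.109), and with striatal, septal and choroid plexus marker scores as covariates 0.22 (edgeR adjusted p = 0.206). It was also lost in limma voom with quality weights, which changes both the test and the weight of each library (0.25, adjusted p = 0.0703), and when only the 2 groups were fitted (edgeR 0.26, adjusted p = 0.268). DESeq2, which called 3.45% of all genes, kept it (0.26, adjusted p = 0.00184). Over these and all other alternatives the adjusted p ran from 0.00184 to 0.316 and the direction was the same. Septal markers were at 58.3 to 67.7 CPM in Control+c-MSST and 57.7 to 148 CPM in Control, and oligodendrocyte markers at 934 to 2914 CPM and 2342 to 4148 CPM; the part of oligodendrocyte markers in the result was not tested.

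**Figure D1:**
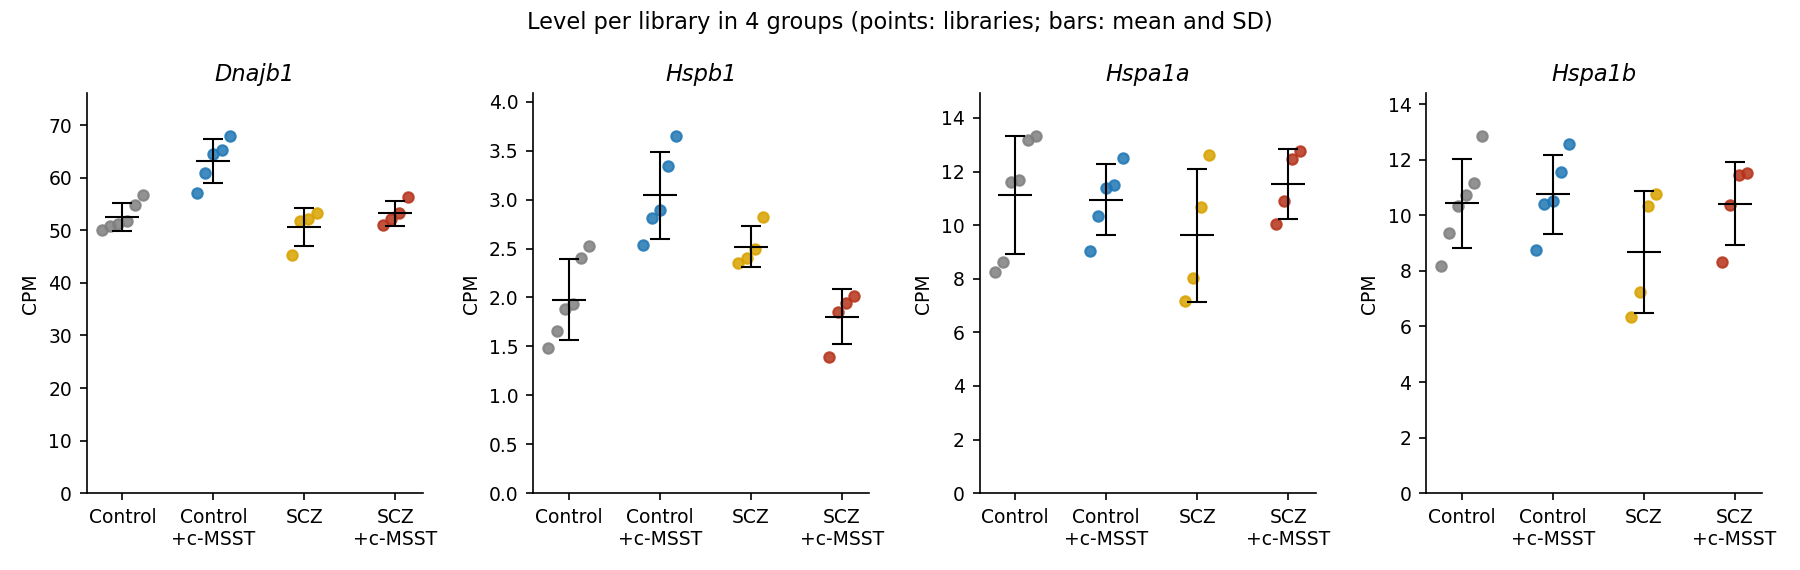
Level of Dnajb1, Hspb1, Hspa1a and Hspa1b (CPM, linear axis from 0) in each of 19 libraries by group; points are libraries, bars the mean and SD. Dnajb1 sits at 57.1 CPM or more in all 5 Control+c-MSST libraries and at 56.7 CPM or less in the 6 Control libraries. Hspb1 is higher with c-MSST in saline mice and lower with it in MK-801 mice.

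Hspb1, the small heat shock protein Hsp27, holds unfolding proteins in solution and in brain is found in blood vessels and reactive glia. Its Control libraries ran from 1.48 to 2.52 CPM with a median of 1.91 CPM, and the Control+c-MSST libraries had 2.53, 2.81, 2.89, 3.34 and 3.65 CPM. The SCZ libraries had 2.35, 2.41, 2.50 and 2.82 CPM, and the SCZ+c-MSST libraries 1.39, 1.85, 1.95 and 2.02 CPM. The groups did not overlap in either comparison of c-MSST, and the directions were opposite: higher in saline mice, where 0.847% of genes did so, and lower in MK-801 mice, where 3.78% were lower and 4.5% higher in this way.

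The log2 fold change of Hspb1 with c-MSST was 0.62 (SE 0.16, edgeR adjusted p = 0.0766) in saline mice and −0.48 (SE 0.18, edgeR adjusted p = 0.554) in MK-801 mice, so neither was called. The difference between these effects was −1.10 (SE 0.24, edgeR adjusted p = 0.365), which ranked 9 by p among 16417 genes, and no gene was called in that test (0%). DESeq2 put Hspb1 past the threshold in saline mice (adjusted p = 0.0130) and in the difference (adjusted p = 0.0134), and limma on FPKM did in saline mice (adjusted p 0.0251 to 0.0434). Of all genes, DESeq2 called 3.45% in saline mice and 0.244% in the difference, and limma on FPKM 1.27% to 3.66% in saline mice. Over all alternatives the adjusted p of the difference ran from 0.0134 to 0.631. Without Control replicates 2 and 3, the highest Control libraries, the effect in saline mice was 0.81 (edgeR adjusted p = 0.0587). SCZ exceeded Control by 0.35 (SE 0.17, edgeR adjusted p = 0.370), and this was 0.54 (adjusted p = 0.238) without those 2 libraries.

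No marker of blood vessel cells was called by edgeR in any comparison. The summed level of 8 endothelial markers was 247 to 264 CPM in Control, 262 to 299 CPM in Control+c-MSST, 280 to 301 CPM in the SCZ libraries and 230 to 297 CPM in SCZ+c-MSST. That of 5 mural cell markers was 191 to 205, 194 to 228, 200 to 217 and 181 to 208 CPM. With c-MSST in saline mice 4 endothelial markers were positive and 4 negative (median log2 fold change 0.056), and of the mural markers 2 were positive and 3 negative (median −0.012). In MK-801 mice 1 endothelial marker was positive and 7 were negative (median −0.13), and all 5 mural markers were negative (median −0.11). Flt1, the most abundant of the endothelial list and 1 of its positive markers in saline mice, averaged 87.5 ± 7.02 CPM (SD, n = 6) in Control and 107 ± 9.26 CPM (n = 5) in Control+c-MSST. No marker of either list was at 0 throughout a group. Of glial lists, all 7 astrocyte markers were negative with c-MSST in saline mice (median −0.19, 5 with an unadjusted edgeR p under 0.05). In MK-801 mice 3 were positive and 4 negative (median −0.015). Of 7 microglia markers, 5 were positive and 2 negative in saline mice (median 0.062), and all 7 were positive in MK-801 mice (median 0.12). The part of vessel and glial markers in the levels of Hspb1 was not tested.

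**Figure D2:**
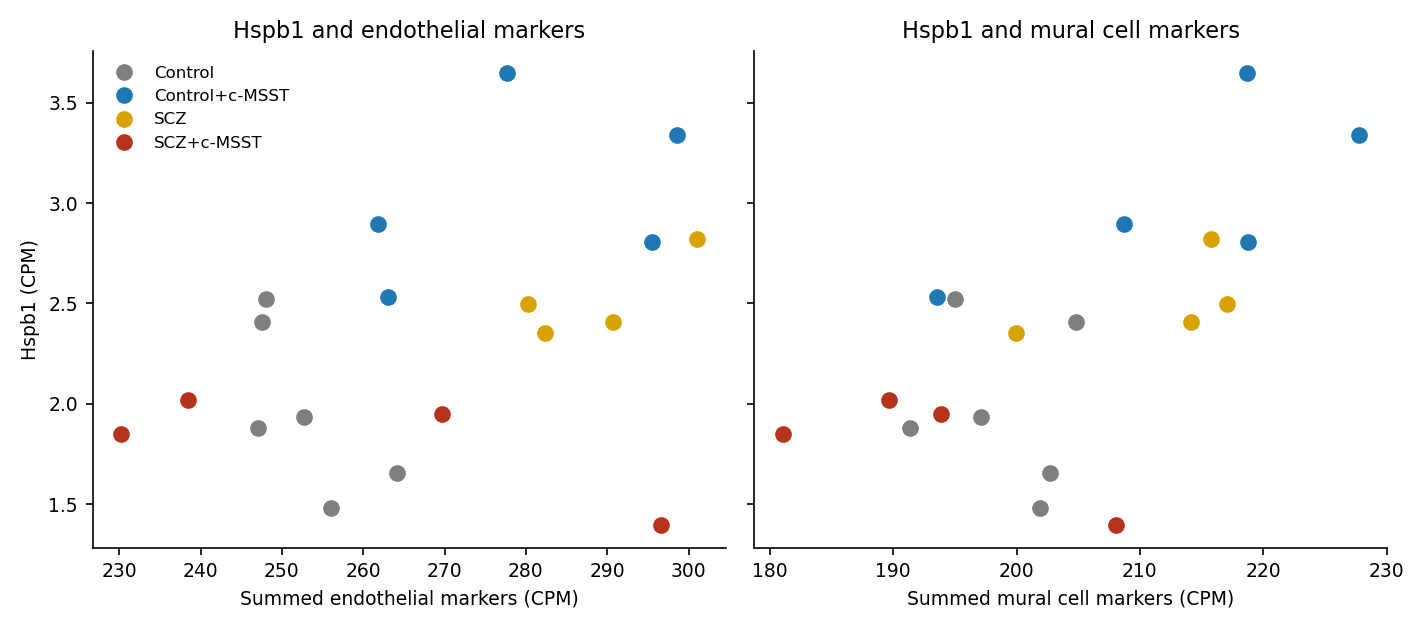
Hspb1 (CPM, vertical axis) against the summed level of 8 endothelial markers (left) and 5 mural cell markers (right) in CPM; each point is 1 library, coloured by group, and the axes do not start at 0. The 5 Control+c-MSST libraries lie at 2.53 CPM of Hspb1 or above. Group medians of Hspb1 are 1.91, 2.89, 2.45 and 1.90 CPM in Control, Control+c-MSST, SCZ and SCZ+c-MSST. In the same order the endothelial medians are 250, 278, 287 and 254 CPM, and the mural medians 200, 219, 215 and 192 CPM. Single libraries differ from this order, as the SCZ+c-MSST library lowest in Hspb1 (1.39 CPM) has 297 CPM of endothelial markers.

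The inducible Hsp70 genes did not pass the test in any comparison. Hspa1a ran from 8.25 to 13.3 CPM with a median of 11.6 CPM in Control, and was 9.02, 10.4, 11.4, 11.5 and 12.5 CPM in Control+c-MSST. It had 7.17, 8.04, 10.7 and 12.6 CPM in the SCZ libraries and 10.0, 10.9, 12.5 and 12.8 CPM in SCZ+c-MSST. Groups overlapped in each comparison, and 2 SCZ libraries, replicates 1 and 5, were the lowest of all 19.

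Hspa1b showed the same layout. It ran from 8.16 to 12.8 CPM with a median of 10.5 CPM in Control, and was 8.75, 10.4, 10.5, 11.5 and 12.6 CPM in Control+c-MSST. It had 6.35, 7.24, 10.3 and 10.8 CPM in the SCZ libraries and 8.31, 10.4, 11.4 and 11.5 CPM in SCZ+c-MSST. The lowest libraries were again SCZ replicates 1 and 5.

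With c-MSST in saline mice the log2 fold change was −0.021 for Hspa1a (95% interval −0.34 to 0.30) and 0.044 for Hspa1b (95% interval −0.26 to 0.35), with edgeR adjusted p of 0.967 and 0.917. In MK-801 mice both were 0.26 (SE 0.18 and 0.17, edgeR adjusted p 0.771 and 0.761), and for their sum it was also 0.26 (95% interval −0.079 to 0.61, edgeR adjusted p = 0.753). For the sum the interval in saline mice was −0.28 to 0.30 around 0.011. These intervals leave room for changes of about the size measured for Dnajb1. SCZ against Control gave −0.21 for Hspa1a (edgeR adjusted p = 0.612) and −0.27 for Hspa1b (edgeR adjusted p = 0.473). With the tissue marker scores as covariates the value for Hspa1a was 0.0094 (edgeR adjusted p = 0.999). That for Hspa1b stayed between −0.39 and −0.14 over all 32 alternatives, the fit with these scores among them. Immediate early genes, which mark recent neuronal activity, summed to 307 to 428 CPM in SCZ, 385 to 782 CPM in Control and 457 to 601 CPM in SCZ+c-MSST, and their part in these values was not tested.

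None of the remaining 6 members passed the test in any comparison. Hsph1, the Hsp110 that releases ADP from Hsp70, had 284 ± 16.3 CPM in Control (SD, n = 6), 282 ± 21.3 CPM in Control+c-MSST (n = 5), 270 ± 18.1 CPM in SCZ and 266 ± 26.2 CPM in SCZ+c-MSST (n = 4 each). Its log2 fold change with c-MSST was −0.013 in saline mice and −0.021 in MK-801 mice, with 95% intervals of −0.15 to 0.12 and −0.18 to 0.13. The Hsph1 values of all 4 groups overlapped.

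Hsp90aa1 and Hsp90ab1, the stress-responsive and the constitutive cytosolic Hsp90, gave the tightest bounds. Hsp90aa1 ran from 911 to 987 CPM in Control, 873 to 969 CPM in Control+c-MSST, 875 to 987 CPM in the SCZ libraries and 862 to 970 CPM in SCZ+c-MSST. Hsp90ab1 ran from 1283 to 1411, 1323 to 1385, 1220 to 1361 and 1311 to 1386 CPM in the same order. The 95% interval of the log2 fold change of Hsp90ab1 with c-MSST was −0.069 to 0.083 in saline mice and −0.062 to 0.12 in MK-801 mice. For Hsp90aa1 the estimates were −0.043 (interval −0.13 to 0.045) and −0.024 (interval −0.13 to 0.079).

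Hspa8 ran from 1473 to 1639 CPM in Control and from 1427 to 1745 CPM in Control+c-MSST, and from 1395 to 1615 CPM in SCZ and 1472 to 1578 CPM in SCZ+c-MSST. Its log2 fold change with c-MSST was 0.018 (interval −0.088 to 0.12) and 0.016 (interval −0.11 to 0.14) in saline and MK-801 mice. Hspa5, the endoplasmic reticulum Hsp70, had 189 ± 17.7 CPM in Control, 202 ± 13.8 CPM in Control+c-MSST, 191 ± 14.5 CPM in the SCZ libraries and 187 ± 15.2 CPM in SCZ+c-MSST. Its log2 fold change was 0.097 (interval −0.047 to 0.24, edgeR adjusted p = 0.518) and −0.028 (interval −0.20 to 0.14).

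Hsf1 itself, whose activity is set by its protein state more than by its transcript, ran from 26.5 to 43.9 CPM in Control and 28.6 to 35.2 CPM in Control+c-MSST. It ran from 28.2 to 39.3 CPM in SCZ and 29.7 to 42.2 CPM in SCZ+c-MSST. The log2 fold changes with c-MSST were −0.062 (interval −0.33 to 0.21) and 0.013 (interval −0.30 to 0.33), so its transcript was measured less precisely than those of Hsph1, Hspa5, Hspa8 and the Hsp90 genes.

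**Figure D3:**
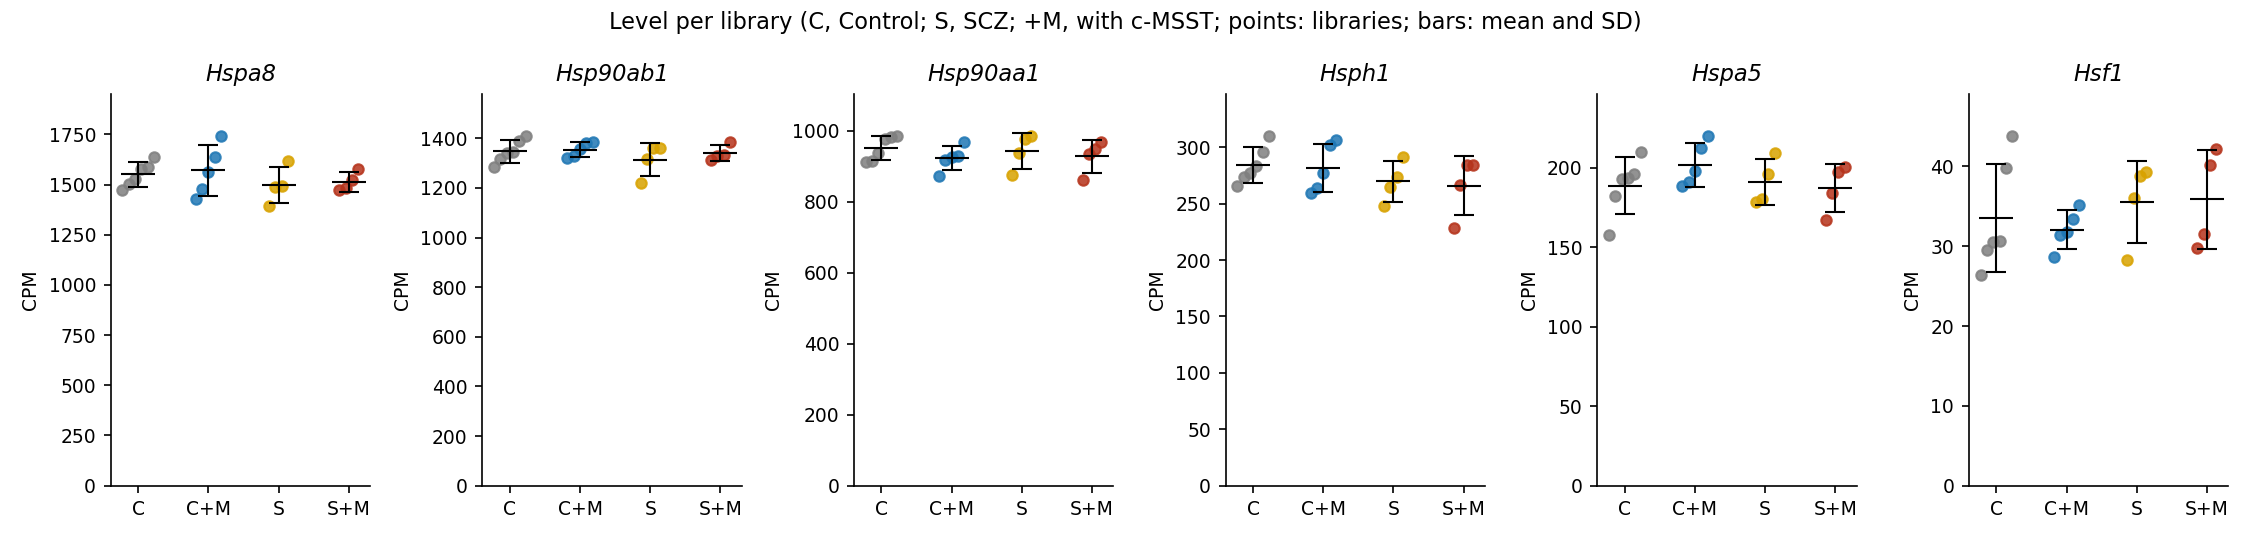
Level of 6 further members (CPM, linear axes from 0) in each of 19 libraries; C is Control, S is SCZ and +M marks c-MSST, points are libraries and bars the mean and SD. Group ranges overlap for all 6 genes, and the spread is narrowest for Hsp90ab1.

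In MK-801 mice c-MSST gave 0 called members and 0 called genes in edgeR (0%). At an unadjusted p under 0.05 there was 1 member, Hspb1, against 7.56% of all genes. DESeq2, limma voom with quality weights and limma on FPKM called none of the 10. Of all genes they called 0.378%, 0.28% and 0.00537% to 0.0171%, in that order. The members' median log2 fold change was 0.014, with 6 positive and 4 negative, against −0.0088 over all genes. In SCZ against Control 0 members and 0 genes were called by edgeR (0%). No member had an unadjusted p under 0.05, against 13.5% of all genes. DESeq2, limma voom with quality weights and limma on FPKM called no member. Of all genes they called 1.48%, 0.0122% and 0.00537% to 0.00857%, in that order. The 0 genes called by edgeR became 94 without Control replicate 4 and 14 without Control replicate 5, none of them a member. No member had groups apart there, against 1.6% of genes higher and 1.25% lower without overlap. The members ranged from −0.27 (Hspa1b) to 0.35 (Hspb1), 3 positive and 7 negative. In the effect of c-MSST averaged over both kinds of mice, 2 genes (0.0122%) and no member were called by edgeR; Dnajb1 alone had an unadjusted p under 0.05, against 15.8% of all genes. It was called by DESeq2 (adjusted p = 0.0147), which called 2.78% of all genes, and by edgeR without Control replicate 7 (adjusted p = 0.0408), where the 2 genes became 223. In the difference between the effects no member was called by edgeR, 2 had an unadjusted p under 0.05 (Hspb1 and Dnajb1) against 7.29% of all genes, and DESeq2 called Hspb1 among 0.244% of all genes. These comparisons share libraries.

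**Figure D4:**
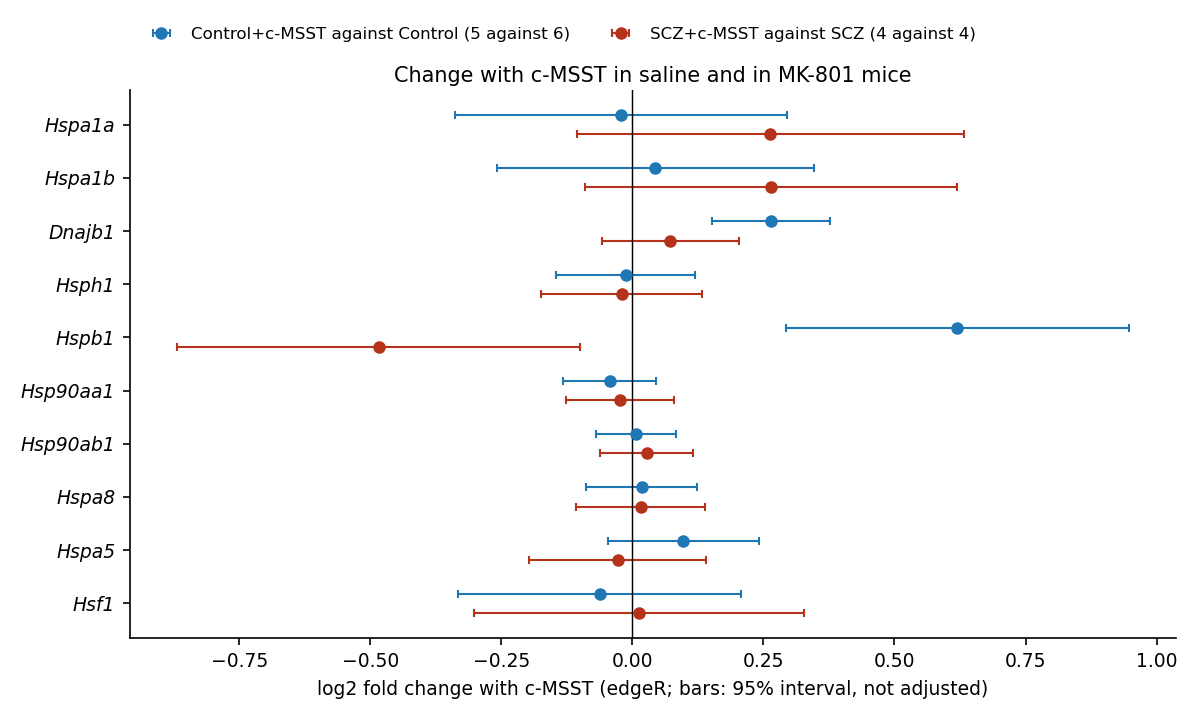
Log2 fold change with c-MSST for each member, in saline mice (5 against 6 libraries) and in MK-801 mice (4 against 4), with unadjusted 95% intervals from edgeR. The interval of Dnajb1 excludes 0 in saline mice only, those of Hspb1 lie on opposite sides of 0, and the other 8 members' intervals all include 0.

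Members were then compared with one another across libraries, after each group's mean was removed from log2 CPM. Of 45 pairs, 5 passed at an adjusted p under 0.05 (permutation of libraries within groups, two-sided, Benjamini-Hochberg over 45 pairs), all positive. Hspa1a and Hspa1b had a Pearson r of 0.83 and a Spearman rho of 0.84 (permutation adjusted p = 0.0105 and 0.00427). Without the 2 libraries farthest from the median of Hspa1a, their r was 0.85. As near-identical copies they can share reads. Hspa1b and Hsf1 had an r of 0.73 and a rho of 0.73 (permutation adjusted p = 0.0105 and 0.0124). Without the 2 libraries farthest from the median of Hspa1b, this r was 0.62. The other 3 pairs held Hspa8. With Hsp90aa1 its r was 0.73 and rho 0.81 (permutation adjusted p = 0.0105 and 0.00427), with Hsp90ab1 0.67 and 0.69 (adjusted p = 0.0272 and 0.0350), and with Hsph1 0.66 and 0.65 (adjusted p = 0.0336 and 0.0764, so the rank correlation did not pass). Without the 2 libraries farthest from the median of Hsp90aa1, Hsp90ab1 or Hsph1, in that order, these r were 0.72, 0.58 and 0.77. The values of Hspa8 and Hsf1 were not used to choose the libraries left out.

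Dnajb1 did not pass with any other member, its r running from −0.34 with Hspb1 to 0.21 with Hspa1b. Hspb1 ran from −0.39 with Hsp90aa1 to 0.18 with Hsp90ab1. The number of pairs that passed fell to 2 or 3 when Control+c-MSST replicate 1 (2 pairs), Control+c-MSST replicate 2 or 6, SCZ replicate 5 or Control replicate 7 (3 pairs each) was left out, and was 9 on log2 FPKM. Libraries share depth and tissue makeup across all genes, and the part of either in these correlations was not tested.

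**Figure D5:**
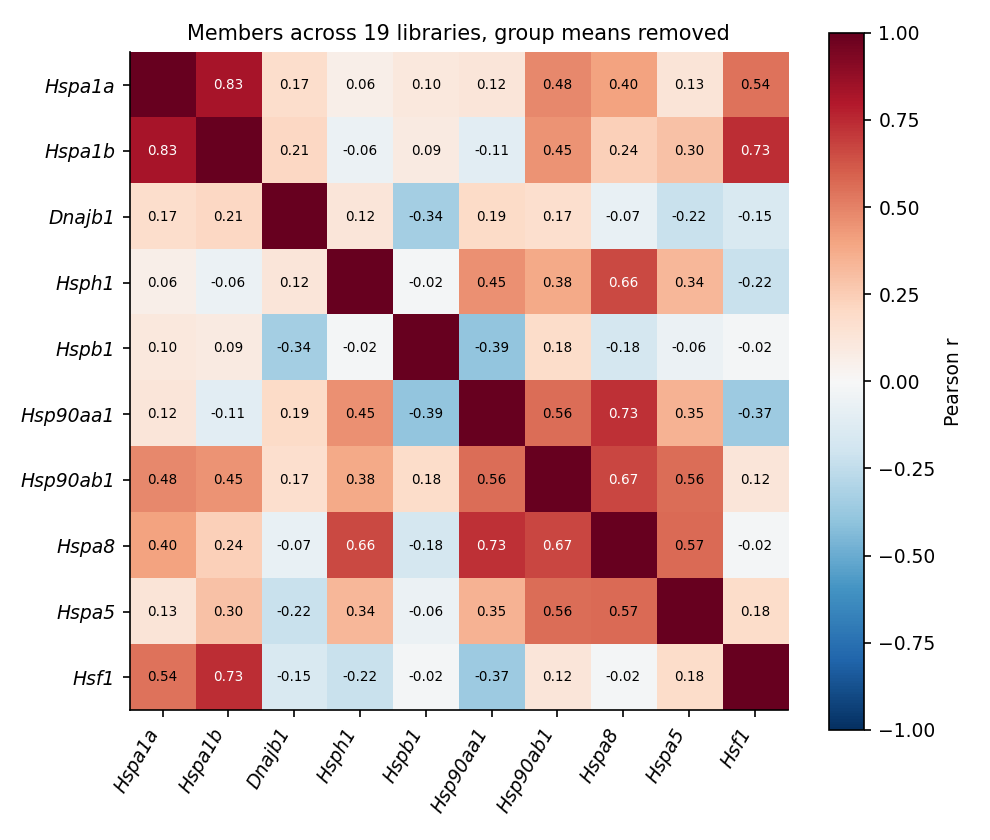
Pearson r between members over 19 libraries, group means removed from log2 CPM; red is positive, blue negative, and each cell prints r. Hspa1a and Hspa1b (0.83), Hspa1b and Hsf1 (0.73) and Hspa8 with Hsp90aa1 (0.73), Hsp90ab1 (0.67) and Hsph1 (0.66) are the 5 pairs that passed.

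With group means removed from log2 CPM, genes were ranked by Pearson r with the mean of Hspa1a, Hspa1b, Dnajb1 and Hsph1 over 19 libraries. Members and genes with predicted names (Gm or Rik) were left out, leaving 13760 tested genes with a mean of at least 1 CPM. The highest were Bmyc (Pearson r = 0.78), Dusp6 (0.76), Bmerb1 (0.75), Mybph (0.73) and Ina (0.71). Dusp6 encodes an ERK phosphatase and Ina a neuronal intermediate filament. For all 5 the r with Hspa1a and Hspa1b (0.60 to 0.79) was above that with Dnajb1 (0.086 to 0.44) and Hsph1 (−0.076 to 0.33). These are descriptions of the closest among many genes.

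The wider chaperone network was followed in 78 further genes of 8 lists, all of which passed the filter on low counts. No gene of these lists was called by edgeR in any of the 5 tests. With c-MSST in saline mice 12 of the 78 (15.4%) had an unadjusted p under 0.05, against 16.6% of all genes, and DESeq2 called 5, Bag6, Cryab, Dnajc3, Dnajc6 and Hspbp1, where it called 3.45% of all genes. In MK-801 mice 4 of the 78 (5.13%) had an unadjusted p under 0.05, against 7.56% of all genes. DESeq2 called none of the 78 there, and 0.378% of all genes. For SCZ against Control the shares were 8.97% and 13.5%, with 1 DESeq2 call, Dnajb5, against 1.48% of all genes. For the averaged effect of c-MSST they were 14.1% and 15.8%, with 2 DESeq2 calls, Bag6 and Cryab, against 2.78% of all genes. For the difference between its effects the unadjusted shares were 8.97% and 7.29%, and DESeq2 called none of the 78, against 0.244% of all genes.

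Of 6 further small heat shock proteins, 3 were positive and 3 negative with c-MSST in saline mice. Cryab (alpha B-crystallin), which is strongly expressed in oligodendrocytes, had 44.9 ± 5.54 CPM (SD, n = 6) in Control and 30.5 ± 6.64 CPM (n = 5) in Control+c-MSST. Its log2 fold change was −0.56 (SE 0.12, edgeR adjusted p = 0.0582) in saline mice and −0.14 (SE 0.14, edgeR adjusted p = 0.853) in MK-801 mice. The summed oligodendrocyte markers, given above for saline mice, were also lower with c-MSST, and Mbp of that list averaged 1628 ± 330 CPM in Control and 1064 ± 369 CPM in Control+c-MSST; their part in the level of Cryab was not tested. In edgeR without Control replicate 7, Cryab (adjusted p = 0.0393), Bag6 (0.0492) and Dnajc3 were called, among 1.92% of all genes. Without Control+c-MSST replicate 1, edgeR called Cryab (0.0390), Dnajc6 (0.0389) and Dnajc3, among 0.775% of all genes. With a minimum mean of 1 CPM as the filter, edgeR called Dnajc3, among 0.569% of all genes. Hspb8, which works with the Hsp70 cofactor Bag3 in clearing misfolded protein, was at −0.28 (SE 0.14, edgeR adjusted p = 0.342) in saline mice.

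Of 15 Hsp70 relatives and exchange factors, 9 were positive and 6 negative with c-MSST in saline mice, with a median log2 fold change of 0.0087. Bag6, a quality control factor for newly made membrane proteins, was at 0.12 (SE 0.033, edgeR adjusted p = 0.0929), and Hspa12a, a distant Hsp70 relative, at 0.0050 (SE 0.067). Of 11 J-domain co-chaperones, the class of Dnajb1, 5 were positive and 6 negative, with a median of −0.023. Dnajc6, the neuronal auxilin that uncoats clathrin vesicles, was at 0.20 (SE 0.054, edgeR adjusted p = 0.0852), and Dnajc5, the synaptic vesicle co-chaperone, at 0.013 (SE 0.11).

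Of 11 Hsp90 co-chaperones, 3 were positive and 8 negative, with a median of −0.034; Stip1, which links Hsp70 to Hsp90, was at −0.11 (SE 0.074) and St13 at −0.15 (SE 0.052, edgeR adjusted p = 0.159). All 6 mitochondrial chaperones were negative (median −0.053), with Hspa9, the mitochondrial Hsp70, at −0.14 (SE 0.045, edgeR adjusted p = 0.139) and Hspd1 at −0.066 (SE 0.056). The 3 relatives and regulators of Hsf1 were positive in saline mice, Hsbp1 at 0.081 (SE 0.050) and Hsf2 at 0.063 (SE 0.057). The 8 subunits of the chaperonin TRiC were split 4 to 4 (median −0.0022), with Tcp1 at 0.039 (SE 0.059) and Cct7 at 0.030 (SE 0.043). Of the 18 genes of endoplasmic reticulum chaperones and the unfolded protein response, 7 were positive and 11 negative, and the highest in level were Calr at 0.0033 (SE 0.073) and Hsp90b1 at −0.091 (SE 0.069).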

How the data were processed

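RNA sequencing of left prelimbic cortex gave 19 libraries, grouped by title. Per the submitters' processing notes, StringTie 1.3.5, Picard 2.18.29, STAR 2.7.7a and fastp 0.19.5 were used on build mm10; whether counting used strand is not stated there. The authors deposited expected counts per gene, which were whole numbers as found, and FPKM values, both per library. Counts were tested in edgeR 4.0.16 (R 4.3.3): filterByExpr (16417 of 20938 genes kept), TMM, glmQLFit (robust) with 1 coefficient per group, and 5 contrasts, adjusted by Benjamini-Hochberg over all genes. Alternatives were DESeq2 1.42.0, limma 3.58.1 (voom with quality weights, and log2 of FPKM with pseudocounts of 1 and 0.1), other scalings, filters and sets of libraries. Correlations used log2 CPM (prior count 2) and 100000 permutations. Gene models came from GENCODE M21 and promoters from RefSeq. A comparison of the members' proteins was not run. No 2 libraries of a group agreed within sampling noise (chi-square per gene 29.2 to 110 over 37 pairs).

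All 10 members are named. Of each other list, genes called in any contrast are named, otherwise the 2 with the highest mean CPM; Bag6, Dnajc6, St13 and other genes follow this rule, while Dnajc3, Hspbp1 and Dnajb5 were named after their values were seen. The members and lists were chosen with earlier results of these data known.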

Additional observations from a re-analysis of the deposited data

Results flagged for a closer look

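Hspb1 was picked out because c-MSST went with opposite directions in the 2 kinds of mice: all 5 Control+c-MSST libraries were above all 6 Control libraries, and all 4 SCZ+c-MSST libraries were below all 4 SCZ libraries. Groups lay apart for 0.847% of all genes in saline mice (higher) and for 3.78% in MK-801 mice (lower, with 4.5% higher). The share of genes apart in both, in opposite directions, was not counted. The difference between the effects was −1.10 on the log2 scale (SE 0.24), and it did not pass edgeR's quasi-likelihood test over all genes (adjusted p = 0.365). No library was far from the rest of its group for any member in the 40 sets of libraries checked, where chance alone would pick out about 1 in 20.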

How the results depend on the processing

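Of 32 log2 fold changes of members followed through the alternatives, 18 kept their direction under every one run; the other 14 were at most 0.21 in size and none was called. Of 18 followed for genes of the other lists, 14 kept it, and the 4 that did not were at most 0.066 in size. The cause of the changes below was not tested. With c-MSST in saline mice the number of called members was 1 in edgeR. It was 2 in DESeq2, which called 3.45% of all genes, against 0.329% in the main edgeR fit. It was also 2 in limma on FPKM with pseudocounts of 1 and 0.1 and a minimum of 1 FPKM (1.29%, 1.27% and 3.66% of all genes). It was 0 in limma voom with quality weights (limma voom below, 0.152%), with the replicate block (0%) and with only the groups of the comparison (0%). It was also 0 with tissue scores as covariates (0.00609%) and without Control replicates 2 and 3 (0.0979%). Leaving out 1 library gave 0 to 1. For the averaged effect it was 0, but 1 in DESeq2 and 0 to 1 with 1 library left out, and for the difference between effects 0, but 1 in DESeq2. The pairs of members that passed numbered 5, against 9 on log2 FPKM and 2 to 7 with 1 library left out.

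Libraries with the same replicate number did not deviate together more than others (r −0.096 to 0.14 over 19 pairs, against −0.14 to 0.19 over 115 other pairs). A correlation over all genes cannot show whether the numbers pair libraries, and no label says so. The replicate block gave Dnajb1 0.21 (adjusted p = 0.316), Hspb1 0.68 (adjusted p = 0.316) and Hspa1a 0.020 in saline mice, and changed no other call. Genes called with c-MSST in saline mice numbered 54, against 567 in DESeq2, 25 in limma voom, 240, 237 and 427 on FPKM, 0 with the replicate block, 0 with only 2 groups, 1 with tissue scores and 16 without Control replicates 2 and 3. Leaving out 1 library gave 0 to 314. In MK-801 mice they numbered 0, against 62 in DESeq2, 46 in limma voom and 31 with only 2 groups. For SCZ against Control DESeq2 called 243, for the averaged effect 456 (limma voom 283), and for the difference 40. FPKM moved the median of all genes in the difference to −0.11 and −0.12 with a pseudocount of 0.1 and a minimum of 1 FPKM. In saline mice the median went from −0.011 to 0.023 and 0.050 with pseudocounts of 1 and 0.1. It was 0.066 there with a minimum of 1 FPKM. In MK-801 mice the median went from −0.0088 to −0.024, −0.049 and −0.049 in the same order. The part of this shift in the members called on FPKM and in the reversals below was not tested.

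Directions that reversed in saline mice were Hspa1a in limma voom (0.094), on FPKM with pseudocounts of 1 and 0.1 and a minimum of 1 FPKM (0.049, 0.070, 0.049) and without Control replicates 2 and 3 (0.069). On FPKM in the same order they were Hsph1 (0.062, 0.063, 0.062), Hsp90aa1 (0.034, 0.035, 0.034) and Hsf1 (0.029, 0.035, 0.029), and Hsf1 also in limma voom (0.0072), with tissue scores (0.0010) and without Control replicates 2 and 3 (0.0091). In MK-801 mice they were Hsp90ab1 (−0.027) and Hspa8 (−0.038) in all 3 fits on FPKM, Hsf1 on FPKM (−0.041, −0.046, −0.041) and in limma voom (−0.021), and Hspa5 with tissue scores (0.052). With 1 library left out, values in saline mice ran from −0.094 to 0.040 for Hspa1a, −0.019 to 0.11 for Hspa1b, −0.045 to 0.014 for Hsph1, −0.0075 to 0.021 for Hsp90ab1, −0.024 to 0.050 for Hspa8 and −0.12 to 0.030 for Hsf1. In MK-801 mice they ran from −0.059 to 0.045 for Hsph1, −0.059 to 0.0086 for Hsp90aa1, −0.0068 to 0.044 for Hsp90ab1, −0.017 to 0.054 for Hspa8, −0.063 to 0.022 for Hspa5 and −0.083 to 0.093 for Hsf1. Hspa1a in SCZ against Control was 0.0094 with tissue scores. Among genes of the other lists in saline mice, Hspd1 was 0.0095, 0.012 and 0.0095 on FPKM, Dnajc5 −0.11 with tissue scores and −0.042 without Control replicates 2 and 3, and with a minimum of 1 CPM Hspa12a was -5.2e-05 and Calr −0.0013. With 1 library left out Hspa12a ran from −0.032 to 0.055, Dnajc5 from −0.011 to 0.12 and Calr from −0.046 to 0.041. Depth limits Hspb1 most, at 80 to 265 counts.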

Other observations

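In SCZ against Control all 8 TRiC subunits were positive, with a median log2 fold change of 0.067 against 0.00047 over all genes tested, and Tcp1 was at 0.12 (SE 0.063, edgeR adjusted p = 0.409). None of these genes was called by edgeR or DESeq2, and none had an unadjusted edgeR p under 0.05. All 10 striatal markers were positive in the same comparison (median 1.18), and their part in the TRiC values was not tested. In MK-801 mice with c-MSST, 9 of 11 J-domain co-chaperones were positive, with a median of 0.051 against −0.0088 over all genes, none with an unadjusted p under 0.05.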
